A study of Mus musculus with 6 samples.

Results

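The genes described here encode the cytosolic and mitochondrial chaperones that fold, hold and refold proteins, together with the heat shock factors that control many of them. They were chosen by name, as the rows of the deposited count table whose gene symbol is on a fixed list of heat shock proteins, their cofactors, the chaperonin TRiC and prefoldin, and all 50 of 50 listed genes were found among 21719 genes in the table. RNA came from MPC5, a conditionally immortalised mouse podocyte line, in 6 libraries. The cells of all 6 were kept in high glucose, so no group without it was compared. The groups differ by the Setdb2 genotype given in the labels, with 3 libraries labelled Setdb2WT (wild type, WT-labelled) and 3 labelled Setdb2KO (knockout, KO-labelled). Setdb2 belongs to the SET-domain proteins and is credited with methylating histone H3. How the knockout was made, whether it is a single clone and whether a group's libraries came from separate cultures is not stated in the sources used here. The p-values therefore measure the spread between these samples alone, and that spread may be technical.

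Each library held 36461449 to 37129174 reads, and levels are given as CPM, the reads of a gene brought to a common library size with TMM factors, which correct for the make-up of each library. Setdb2 itself, the targeted gene, was counted with 12, 10 and 9 reads under the WT label and 17, 15 and 25 under the KO label. It was not lower in the latter (adjusted p = 0.088 by edgeR), so each group goes by its label below. Whether the labels are exchanged was not tested, and every direction given here would turn if they were. Of the 8 podocyte markers analysed here, Wt1 had 0 to 2 reads per library, and all 8 summed to 1856 to 1862 CPM under the WT label and 1600 to 1675 CPM under the KO label. Podxl, the podocyte surface sialomucin, lay at 50.5 ± 1.6 against 4.96 ± 0.38 CPM, and Synpo, the actin-binding synaptopodin, at 43.6 ± 0.60 against 25.4 ± 1.8 CPM (SD, n = 3 each). Summed over each list, mesangial markers lay at 54.7 to 58.8 CPM against 19.9 to 22.6 CPM in the same order. Tubular markers (nearly all Cdh16 and Lrp2) lay at 619 to 633 against 374 to 394. Fibroblast, endothelial and immune markers summed to no more than 15.2 CPM per list in any library. The part of any of these markers in the results was not tested. Within the knockout label, replicate 2 stood further from the others, at 8.87 and 15.8 chi-square units per degree of freedom from replicates 1 and 3, which were 4.38 apart. Pairs under the WT label were 2.52 to 2.68 apart. Because bulk RNA was sequenced, less RNA per cell and fewer cells of a type cannot be told apart.

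Chaperones of the HSP70 family bind exposed hydrophobic stretches of a protein in a cycle of ATP hydrolysis that J proteins start and nucleotide exchange factors end. HSP90 receives clients such as kinases and steroid receptors from HSP70 at a later stage of folding, with a set of cochaperones that time its own ATP cycle. TRiC is a ring-shaped chamber for actin and tubulin, which prefoldin hands over, and mitochondria have their own HSP70, HSP90 and chaperonin. Podocytes depend on an actin framework in their foot processes, and actin is a client of the TRiC and prefoldin route.

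In the KO-labelled libraries more chaperone transcripts fell than rose. Of the 50 genes, 49 passed the filter on low counts, the exception being Hspa1a, and of these 34 fell, 11 rose and 4 did not pass the test. The largest changes were falls of Fkbp5 (9.64-fold), Hspa8 (6.53-fold) and Hsp90ab1 (4.03-fold), while Dnajb4 (2.77-fold), Hspa1b (2.72-fold) and Hspa4l (2.21-fold) rose most. These counts are from edgeR's quasi-likelihood test at an adjusted p of 0.05, by which 83.8% of all 13509 genes tested changed, 42.3% lower and 41.5% higher. A share of calls of 91.8% among the chaperone genes is thus near that background, whereas the median log2 fold change was -0.39, against 0.005 over all genes tested. The median size of a change was 0.67 on the log2 scale for the chaperone genes and 0.66 for all genes. Under total-count scaling, which moved the median of all genes up by 0.154, the split was 25 lower and 15 higher, with 4833 lower and 6550 higher over all genes.

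With a limit of 1.5-fold in place of no change, glmTreat called 19 chaperone genes lower and 6 higher. Over all genes the same rule called 45.4%, with 23.1% lower and 22.3% higher. At least 2-fold changes that passed edgeR's test numbered 14, with 11 lower and 3 higher, against 32.6% of all genes. The libraries of the groups did not overlap in 44 of the 49 genes, against 84.6% of all genes. Together the 50 genes took 2.03% to 2.06% of all reads in the WT-labelled libraries and 1.35% to 1.38% in the KO-labelled ones. Hspa8 and Hsp90ab1 alone went from 0.548% to 0.562% down to 0.127% to 0.138% of all reads.

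**Figure D1:**
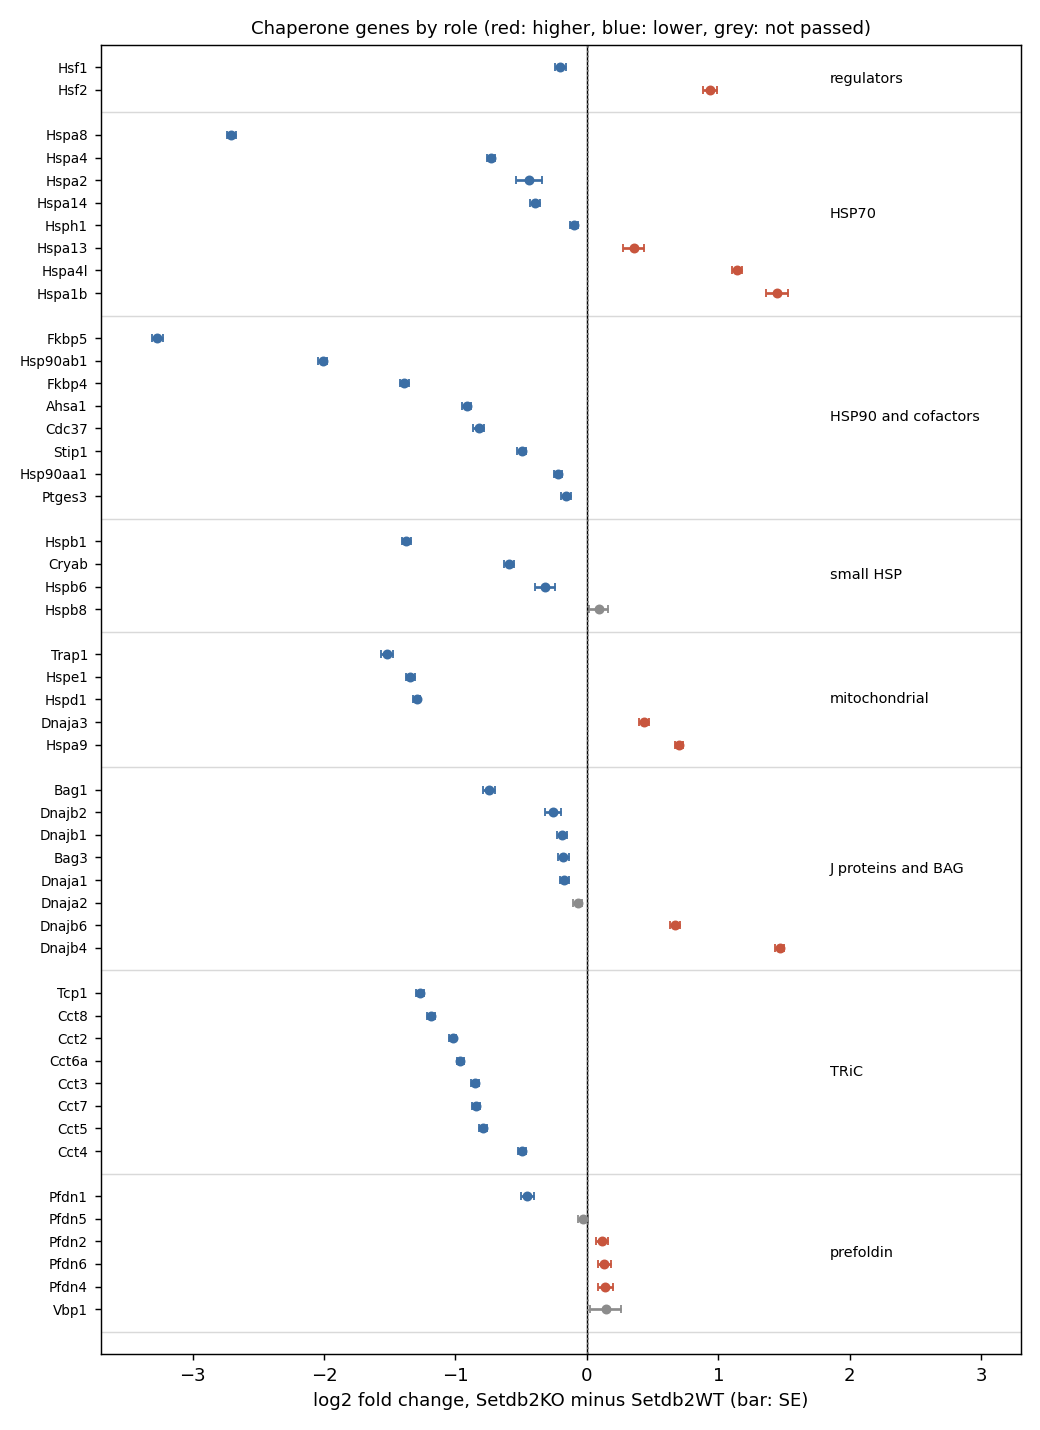
Log2 fold change of each of 49 tested chaperone genes (x axis, KO-labelled minus WT-labelled libraries, bars are the standard error) by role (y axis), in red where the gene rose, blue where it fell and grey where it did not pass edgeR's test. All 8 TRiC subunits and all 8 genes of HSP90 and its cofactors lie to the left of 0, while the other roles are divided.

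The 2 heat shock factors moved apart. Hsf1, the factor that drives the response to misfolded protein, lay at 92.55, 98.68 and 90.01 CPM in the WT-labelled libraries and at 80.3, 81.3 and 82.8 CPM in the KO-labelled ones. The groups did not overlap, and Hsf1 fell 1.15-fold (log2 fold change -0.20, SE 0.04; adjusted p = 3.4e-04 by edgeR), but under total-count scaling it did not pass (log2 fold change -0.05, adjusted p = 0.28). Hsf2, a relative that forms mixed trimers with Hsf1, lay at 32.2, 30.5 and 29.4 CPM against 57.4, 56.9 and 61.6 CPM. Every KO-labelled library was above every other library for Hsf2, which rose 1.91-fold (log2 fold change 0.93, SE 0.05; adjusted p = 5.2e-10 by edgeR).

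Heat shock factors bind repeats of the unit GAA in alternating orientation, so the promoters of the chaperone genes were searched for that pattern. Windows of 250 bases before to 50 after a transcript start were available from RefSeq (GRCm38.p6) for 41 of the 50 genes. The windows of Hsf1, Hspa8, Hspa13, Hsp90aa1, Hsp90ab1, Cryab, Hspa9, Cct4 and Pfdn1 were not analysed here. A run of 3 units, GAANNTTCNNGAA or its reverse complement TTCNNGAANNTTC, was found in 4 of the 41 genes (9.8%: Dnajb6, Hspd1, Hspe1 and Hsph1), against 0.66% of 27025 genes with a window. Pairs of units, GAANNTTC or TTCNNGAA, each of which reads the same on both strands and is part of the longer run, were found in 17 of 41 (41.5%) against 16.97% of all genes. The run of Hsph1 lies after its transcript start, Hspd1 and Hspe1 share the same stretch, and another Hspd1 window held 0 runs. The 27025 genes are not limited to those tested here. A match describes these letters only. The windows below, chosen after the values were seen, are those before the start that hold a run of 3 units or belong to a gene changed at least 2-fold, and that of Hspa1a for comparison with Hspa1b. Capitals mark the matching units, and 20 bases are kept on either side up to the transcript start.
Hspd1 and Hspe1 (chr1:55088039-55088096, plus strand): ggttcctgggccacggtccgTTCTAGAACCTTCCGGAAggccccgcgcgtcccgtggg
Dnajb6 (chr5:29735832-29735884, plus strand): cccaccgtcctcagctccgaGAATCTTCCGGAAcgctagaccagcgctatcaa
Hspb1 (chr5:135887782-135887849, plus strand): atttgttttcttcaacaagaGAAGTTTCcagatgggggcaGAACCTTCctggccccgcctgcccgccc
Hspa1b (chr17:34959315-34959362, minus strand): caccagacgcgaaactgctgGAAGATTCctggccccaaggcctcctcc
Hspa1a (chr17:34972233-34972280, minus strand): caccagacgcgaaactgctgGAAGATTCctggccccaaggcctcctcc
Dnajb4 (chr3:152193846-152193879, minus strand): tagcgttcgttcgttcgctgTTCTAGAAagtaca
Fkbp4 (chr6:128438780-128438827, minus strand): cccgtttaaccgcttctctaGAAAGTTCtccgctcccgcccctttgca
Cct2 (chr10:117063390-117063437, minus strand): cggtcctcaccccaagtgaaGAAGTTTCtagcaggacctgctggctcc
Hspd1 and Hspe1 are read in opposite directions from the same stretch, which holds 2 overlapping runs of 3 units, 144 bases before the Hspd1 start and 89 before the Hspe1 start at their farthest. The windows of Hspa1a and Hspa1b have the same letters at 2 places on chromosome 17. Genes with a match moved in both directions, as Hspb1, Fkbp4, Cct2, Hspd1 and Hspe1 fell and Hspa1b, Dnajb4 and Dnajb6 rose.

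Among the HSP70 family, the constitutive member fell and the stress-inducible one rose. Hspa8, the housekeeping cytosolic HSP70, lay at 2042, 2017 and 1988 CPM in the WT-labelled libraries and at 312, 320 and 294 CPM in the KO-labelled ones. The groups were far apart, with a log2 fold change of -2.71 (SE 0.03; adjusted p = 2.6e-16 by edgeR). Hspa8 has 11 processed copies in the GENCODE mouse annotation that match its transcript over at least 200 bases at 90% identity or more. Among these copies, 5 match at 95% or more, and 0 are rows of the table under the same name. How many Hspa8 reads were lost to them in the authors' counting was not tested.

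Hspa1b, an HSP70 gene that heat shock factors induce, lay at 17.02, 14.52 and 14.49 CPM against 38.6, 46.6 and 40.3 CPM. All 3 KO-labelled libraries were higher, replicate 2 most of all, and Hspa1b rose 2.72-fold (log2 fold change 1.45, SE 0.08; adjusted p = 6.5e-10 by edgeR). Without that replicate the log2 fold change was 1.36. Its neighbour Hspa1a encodes nearly the same protein, and their transcripts match at 99.2% over 2201 bases, so their reads can be mistaken for each other. Hspa1a had 5, 2 and 4 reads against 12, 8 and 8 and was too low to test. Summed into 1 row, the reads of both genes rose 2.72-fold (adjusted p = 6.3e-10 by edgeR). Of these reads Hspa1b gave 1611 and 4842 per group and Hspa1a 11 and 28. The sum thus nearly repeats Hspa1b, and it cannot restore reads that were counted for neither gene.

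The remaining HSP70 genes were divided. Hspa4l, a nucleotide exchange factor of the HSP110 branch, lay at 424, 407 and 410 CPM against 938, 862 and 944 CPM and rose 2.21-fold (log2 fold change 1.14, SE 0.04; adjusted p = 1.3e-12 by edgeR). Its relative Hspa4 fell 1.66-fold, at 464.7 ± 2.6 CPM against 280.0 ± 7.5 CPM (SD, n = 3 each), again without overlap. The third member of that branch, Hsph1, had a log2 fold change of -0.10 that passed edgeR's test but turned to 0.05 and did not pass under total-count scaling. Hspa14, an HSP70 that works at the ribosome, fell 1.31-fold, and Hspa2, an HSP70 needed in male germ cells, fell 1.35-fold, at 12.2 ± 0.49 CPM against 9.04 ± 1.1 CPM. Hspa13, a microsomal HSP70, lay at 93.7, 93.9 and 95.8 CPM against 125, 101 and 137 CPM. It rose by 0.36 on the log2 scale, and by 0.47 without replicate 2 of the KO-labelled libraries, the lowest of its group. Of the 8 tested HSP70 genes 5 fell and 3 rose, against 42.3% of all genes lower and 41.5% higher. Their median log2 fold change of -0.25 was -0.09 under total-count scaling and -0.12 with no filter on low counts, which adds Hspa1a.

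Levels of different genes can be set side by side only per length of transcript. On the scale of CPM per kilobase, the cytosolic HSP70 transcripts Hspa8, Hspa1a, Hspa1b and Hspa2 summed to 840 to 864 in the WT-labelled libraries and to 140 to 154 in the KO-labelled ones. Hspa8 made up 98.8% ± 0.055 of that sum in the former and 87.4% ± 0.74 in the latter (SD, n = 3 each). The share of Hspa1b went from 0.642% ± 0.053 to 10.1% ± 0.74. By the counted reads, Hspa1b therefore remained a smaller part than Hspa8 in every library. How many reads of Hspa1a, Hspa1b and Hspa8 were lost to near-identical sequences in the authors' counting was not tested. Such losses would shift these shares.

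**Figure D2:**
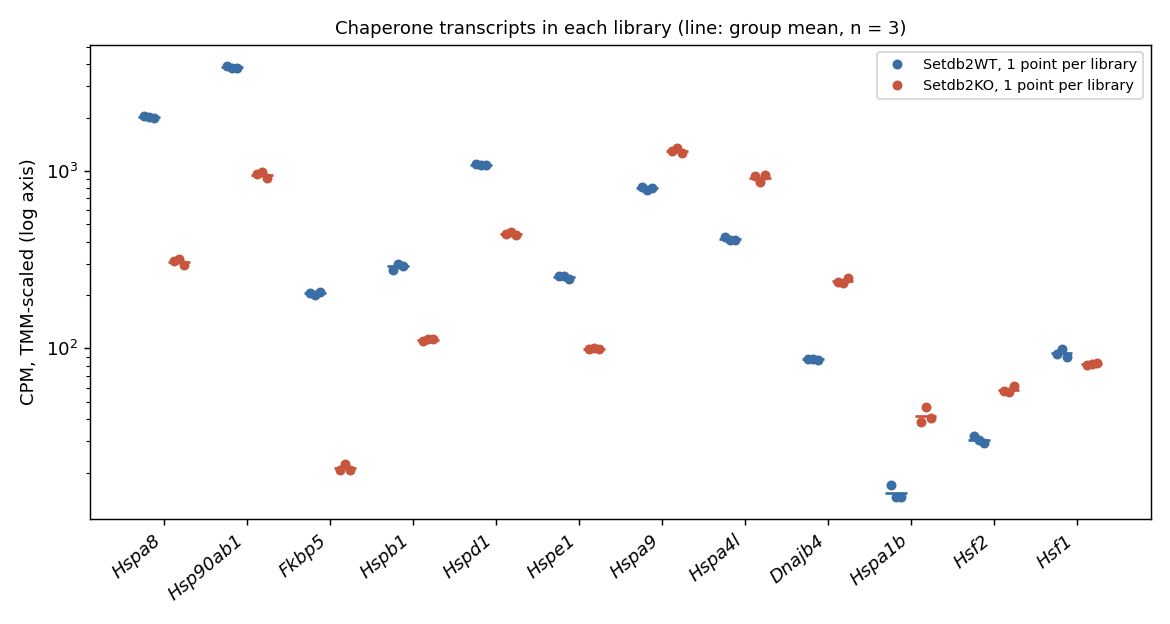
Level of 12 chaperone and heat shock factor genes in each library (y axis, TMM-scaled CPM on a log axis; x axis, genes), with 1 point per library and a line at the mean of 3 libraries, blue for Setdb2WT and red for Setdb2KO. The groups do not overlap in any of the 12 genes, and Fkbp5, Hspa8 and Hsp90ab1 are the farthest apart.

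All 8 genes of HSP90 and its cofactors fell in the KO-labelled libraries, and 6 of them did so under total-count scaling. Over all genes tested, 42.3% were lower under TMM scaling. Hsp90ab1, the constitutive cytosolic HSP90, lay at 3892, 3815 and 3800 CPM against 955, 991 and 911 CPM, a 4.03-fold fall (log2 fold change -2.01, SE 0.03; adjusted p = 1.9e-15 by edgeR). Hsp90aa1, the stress-inducible isoform, lay at 1678, 1651 and 1645 CPM against 1451, 1374 and 1449 CPM. Its libraries did not overlap either, but the fall was 1.16-fold and did not pass under total-count scaling (adjusted p = 0.056). Per kilobase, Hsp90ab1 made up 75.1% ± 0.043 of the HSP90 transcripts in the WT-labelled libraries and 46.5% ± 1.7 in the KO-labelled ones (SD, n = 3 each). The sum of both went from 2030 ± 25 to 812 ± 9.1 CPM per kilobase. Hsp90aa1 has 5 processed copies by the same rule, 3 of them at 95% identity or more, and Hsp90ab1 has 2, none at 95%.

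Fkbp5 and Fkbp4, immunophilins that bind HSP90 in complexes with steroid receptors, had the largest falls among the 6 cofactors of this set. Fkbp5, itself a gene that glucocorticoids induce, lay at 206, 200 and 208 CPM against 20.6, 22.4 and 20.7 CPM. No library came near the other group, and Fkbp5 fell 9.64-fold (log2 fold change -3.27, SE 0.04; adjusted p = 3.2e-16 by edgeR). Fkbp4 lay at 478, 465 and 480 CPM against 179, 188 and 175 CPM and fell 2.62-fold (log2 fold change -1.39, SE 0.03; adjusted p = 6.1e-14).

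The other 4 cofactors of this set fell less than Fkbp4. Ahsa1, which stimulates the HSP90 ATPase, fell 1.89-fold, at 198.0 ± 4.6 CPM against 105.0 ± 2.1 CPM (SD, n = 3 each), and Cdc37, which brings kinases to HSP90, fell 1.77-fold, at 313 ± 6.7 CPM against 177 ± 9.97 CPM. Stip1, the adaptor that joins HSP70 to HSP90, fell 1.41-fold. Ptges3, the cochaperone p23 that holds the closed form of HSP90, lay at 228, 224 and 229 CPM against 212, 191 and 208 CPM, a log2 fold change of -0.16 that was -0.005 under total-count scaling (adjusted p = 0.91). Ptges3-ps, a processed copy and the only such copy of any of the 50 genes found by name in the table, had 2190, 2247 and 2237 reads against 2211, 2202 and 2126. With its reads added, Ptges3 had a log2 fold change of -0.16. The median of the 8 genes was -0.87, and 5 of them passed the 1.5-fold limit, which 23.1% of all genes passed as lower.

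Of the 4 small heat shock proteins, which hold unfolded proteins without ATP, 3 fell and 1 did not pass, against 42.3% of all genes lower. Hspb1, which also binds and stabilises actin filaments, lay at 278, 300.1 and 291 CPM against 110, 113 and 112 CPM. It fell 2.59-fold without overlap (log2 fold change -1.37, SE 0.04; adjusted p = 1.3e-13 by edgeR), and has 1 processed copy that matches at 99.8%. Cryab, the alpha-B crystallin, lay at 276, 291 and 279 CPM against 182, 197 and 182 CPM and fell 1.51-fold. Hspb6, a muscle-rich relative, lay at 20.2, 22.4 and 21.6 CPM against 15.9, 18.7 and 16.9 CPM and fell 1.25-fold, but did not pass under total-count scaling (adjusted p = 0.052). Hspb8, the partner of Bag3 in selective autophagy, had a log2 fold change of 0.09 (95% interval -0.06 to 0.24; adjusted p = 0.25 by edgeR). Total-count scaling gave it 0.24 with an adjusted p of 0.0054.

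Of the 5 mitochondrial chaperones 3 fell and 2 rose, against 42.3% of all genes lower and 41.5% higher. Hspd1, the chaperonin of the matrix, lay at 1094, 1082 and 1081 CPM against 439, 450.1 and 437 CPM, a 2.46-fold fall (log2 fold change -1.30, SE 0.03; adjusted p = 1.9e-14 by edgeR). Hspe1, its lid, lay at 256, 258 and 247 CPM against 99.4, 101 and 98.7 CPM, a 2.54-fold fall (log2 fold change -1.34, SE 0.03; adjusted p = 7.1e-14). These genes share the promoter stretch printed above, and whether it bears on their changes was not tested. Hspd1 has 5 processed copies by the rule used for Hspa8, and Hspe1 has 4, but none of them is a row of the table under the same name. RefSeq names 7 copies of Hspe1, and a coding transcript of another gene, AC117239.2, matches it at 99.0% over 515 bases. How many Hspe1 reads were lost to these was not tested. Trap1, the HSP90 of mitochondria, lay at 123, 116 and 124 CPM against 40.04, 43.99 and 42.56 CPM and fell 2.87-fold (log2 fold change -1.52, SE 0.04; adjusted p = 5.1e-13).

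Hspa9, the HSP70 that pulls proteins into the matrix, moved the other way. It lay at 807, 779 and 805 CPM against 1300, 1340 and 1256 CPM and rose 1.63-fold (log2 fold change 0.70, SE 0.03; adjusted p = 3.6e-11 by edgeR). Dnaja3, a J protein that works with it, rose 1.35-fold, at 60.7 ± 0.46 CPM against 82.1 ± 2.9 CPM (SD, n = 3 each). Per kilobase, Hspa9 went from 24.0% ± 0.41 to 56.4% ± 0.49 of the summed Hspa9, Hspd1, Hspe1 and Trap1 transcripts, while Hspd1 went from 41.1% ± 0.062 to 24.2% ± 0.25. Neither share overlapped between the groups. The sum itself went from 1083 to 1100 down to 738 to 775 CPM per kilobase. Hspa9 has 1 processed copy by the rule used for Hspa8.

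**Figure D3:**
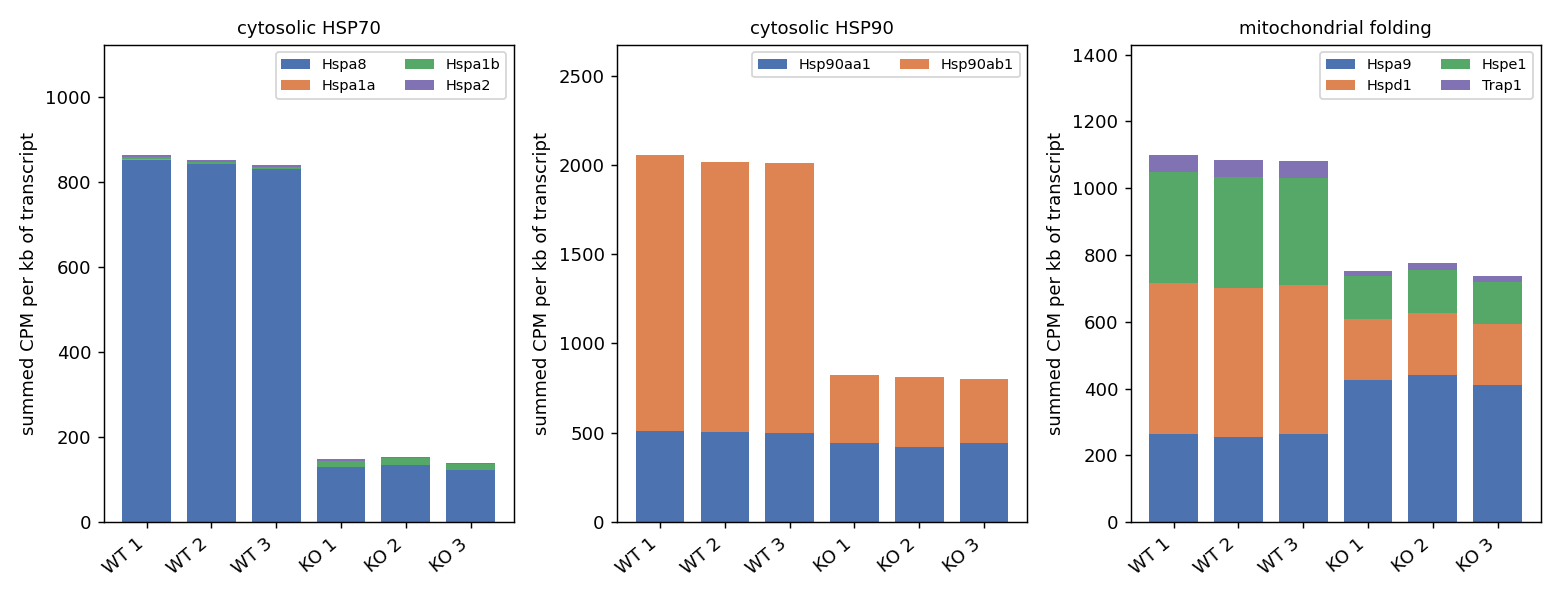
Summed level of 3 sets of chaperone transcripts in each library (y axis, CPM per kilobase of transcript; x axis, libraries, WT-labelled as WT and KO-labelled as KO), with each gene's part of the bar in its own colour. All 3 sums are lower in every KO library than in any WT library. The KO libraries are also those where Hsp90aa1 and Hsp90ab1 take nearly equal parts and where the Hspa9 part of the mitochondrial bar is larger.

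The J proteins and BAG factors, which start and end the HSP70 cycle, changed little apart from a few. Dnajb4, a cytosolic J protein, lay at 87.2, 86.6 and 86.4 CPM against 238, 234 and 249 CPM and rose 2.77-fold (log2 fold change 1.47, SE 0.03; adjusted p = 5.4e-14 by edgeR). Dnajb6, which keeps polyglutamine proteins from aggregating, lay at 152, 147 and 144 CPM against 239.9, 239 and 225 CPM and rose 1.59-fold (log2 fold change 0.67, SE 0.04; adjusted p = 3.1e-10). It has 7 processed copies, 5 of them at 95% identity or more, and 0 are rows of the table under the same name. Bag1, a nucleotide exchange factor for HSP70, lay at 104, 104 and 104 CPM against 58.7, 66.4 and 61.2 CPM and fell 1.67-fold (log2 fold change -0.74, SE 0.04; adjusted p = 1.2e-09).

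The other J proteins and Bag3 lay close to no change. Dnaja2, the most abundant of the role by CPM, lay at 376, 370 and 379 CPM against 355, 346 and 371 CPM, with overlapping libraries (log2 fold change -0.07, 95% interval -0.14 to -0.001; adjusted p = 0.057 by edgeR), and total-count scaling turned it to 0.09 (adjusted p = 0.023). Dnaja1, Dnajb1, Dnajb2 and Bag3 had log2 fold changes of -0.17, -0.19, -0.26 and -0.18 that passed the test under TMM scaling, but none of these 4 passed under total-count scaling. Dnajb1, the main stress-induced J protein, thus lay at 107 ± 0.81 against 93.4 ± 4.5 CPM, and Bag3, a stress-induced exchange factor, at 56.9 ± 1.1 against 50.2 ± 0.47 CPM (SD, n = 3 each). Dnaja1 has 3 processed copies by the rule used for Hspa8, all at 95% identity or more. Of the 8 genes of the role 5 fell, 2 rose and 1 did not pass, so that 87.5% were called, near the 83.8% of all genes. Total-count scaling called 1 lower and 3 higher.

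All 8 subunits of TRiC fell in the KO-labelled libraries, under TMM and total-count scaling alike, and 7 of them passed the 1.5-fold limit. Over all genes tested, 42.3% were lower under TMM scaling and 23.1% passed that limit as lower. Tcp1 lay at 665, 659.6 and 652 CPM against 272, 281 and 269 CPM and fell 2.41-fold (log2 fold change -1.27, SE 0.03; adjusted p = 4.1e-14 by edgeR). Cct8 lay at 599, 581 and 602 CPM against 257, 269 and 256 CPM and fell 2.28-fold, and Cct2 lay at 746, 748 and 748 CPM against 371, 372 and 361 CPM and fell 2.03-fold. The most abundant subunit by CPM, Cct6a, lay at 971, 946 and 971 CPM against 496, 502 and 484 CPM, a 1.95-fold fall. Cct3, Cct7 and Cct5 fell 1.81-fold, 1.79-fold and 1.73-fold. By the rule used for Hspa8, Cct3 and Cct7 have 1 processed copy each. Cct4 had the smallest change, from 425.9 ± 3.8 to 302 ± 1.5 CPM (SD, n = 3 each), a 1.41-fold fall that did not pass the 1.5-fold limit. The ring holds each subunit in equal number, but the changes were unequal, as the 95% intervals of Tcp1 (-1.33 to -1.20) and Cct4 (-0.55 to -0.43) did not meet. The median over the subunits was -0.91.

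Per kilobase, the 8 TRiC transcripts lay within 2.34-fold to 2.50-fold of each other in the WT-labelled libraries and within 2.11-fold to 2.18-fold in the KO-labelled ones. Cct3 was the highest in the former, at 425, 405 and 415 CPM per kilobase, but overlapped with Cct5, at 409, 394 and 409. In the latter these 2 were again on top and overlapped. Cct4 was the lowest in every WT-labelled library, and Cct8 in every KO-labelled library, where it overlapped with Tcp1. Lengths are those of the longest annotated transcript, so a shorter form in these cells would shift a level but not a fold change.

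Prefoldin, which passes unfolded actin and tubulin to TRiC, did not show such falls. Of its 6 subunits 1 fell, 3 rose and 2 did not pass the test, against 83.8% of all genes called. The 1.5-fold limit was passed by 0 of them, against 45.4% of all genes. Pfdn1 lay at 91.3, 83.4 and 91.6 CPM against 65.1, 69.1 and 60.5 CPM and fell 1.37-fold (log2 fold change -0.45, SE 0.05; adjusted p = 1.6e-06 by edgeR). Pfdn2, Pfdn4 and Pfdn6 rose 1.09-fold, 1.10-fold and 1.10-fold at adjusted p of 0.027, 0.040 and 0.030, but all 3 calls were lost without WT replicate 1. Pfdn2 and Pfdn6 also missed the threshold without WT replicate 2, Pfdn4 without WT replicate 3, Pfdn2 without KO replicate 2, Pfdn4 without KO replicate 1 and Pfdn6 without KO replicate 3. Pfdn4, for example, lay at 24.8, 26.9 and 24.8 CPM against 29.3, 27.8 and 27.2 CPM. The libraries of Pfdn6 overlapped between the groups. By the rule used for Hspa8, Pfdn5 has 1 processed copy, at 97.0% identity. Pfdn5, the most abundant by CPM, lay at 90.7, 90.1 and 90.8 CPM against 87.8, 92.8 and 85.0 CPM, with a log2 fold change of -0.03 (95% interval -0.12 to 0.05; adjusted p = 0.46) that turned to 0.12 and passed under total-count scaling (adjusted p = 0.0098), where 5 subunits were higher and 1 lower. Vbp1 lay at 72.7, 72.2 and 69.4 CPM against 85.9, 58.2 and 92.8 CPM. Replicate 2 of the KO-labelled libraries was thus below, and the other 2 above, all WT-labelled libraries, and the log2 fold change went from 0.14 (adjusted p = 0.27) to 0.32 without it (adjusted p = 4.9e-08 by edgeR).

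**Figure D4:**
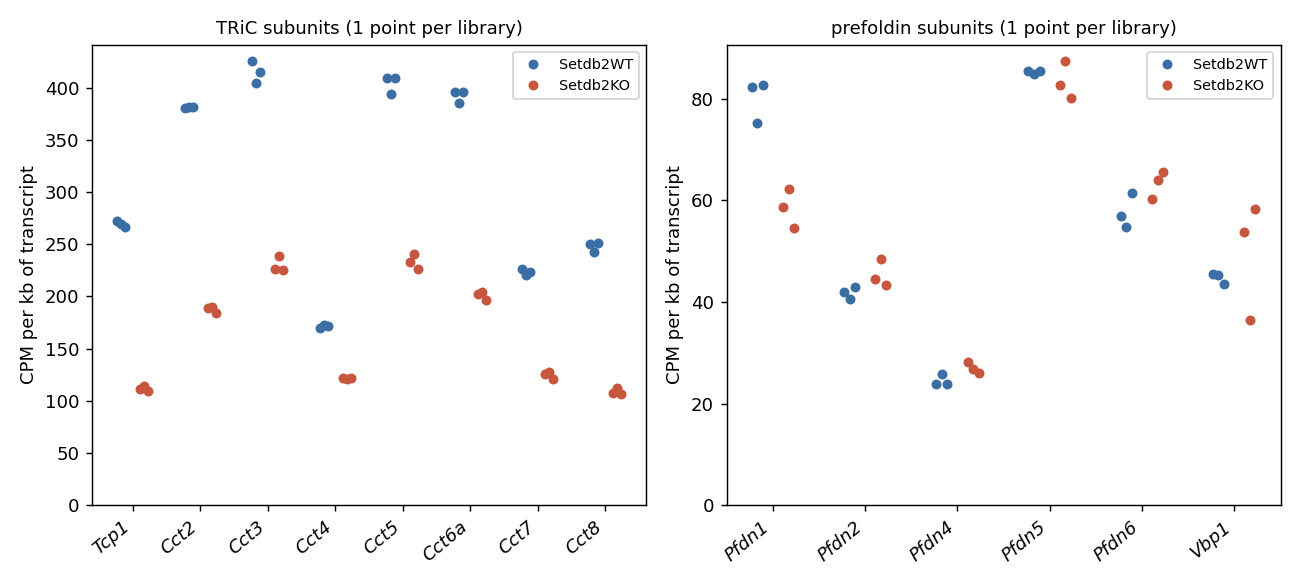
Level of each TRiC subunit (left) and prefoldin subunit (right) in each library (y axis, CPM per kilobase of transcript, from 0; 1 point per library, blue for Setdb2WT and red for Setdb2KO). Each TRiC subunit is lower in all 3 KO-labelled libraries, while among prefoldin subunits only Pfdn1 is lower without overlap and Vbp1 has replicate 2 apart from the others.

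Other genes of the chaperone network were taken from a list of 86, of which 81 were in the table and 75 were tested. Of these 38 fell, 30 rose and 7 did not pass, so that 90.7% were called, against 83.8% of all genes (42.3% lower and 41.5% higher). Their median was -0.14 on the log2 scale. Total-count scaling gave 30 lower and 33 higher, against 4833 and 6550 over all genes. Further HSP90 cofactors were divided, with 7 of 14 lower and 4 higher. Aarsd1 fell 3.68-fold and Ahsa2, a relative of Ahsa1, 3.00-fold, whereas Chordc1, an HSP90 cochaperone, rose 1.36-fold and Ttc4 1.39-fold. Among exchange factors and HSP70 partners, 4 of 10 fell and 5 rose. Bag2, which inhibits the ubiquitin ligase Stub1, fell 3.55-fold and Stub1 1.47-fold. Bag5 rose 1.32-fold. Hikeshi, which carries HSP70 into the nucleus, rose 1.10-fold near the threshold (adjusted p = 0.045 by edgeR), with libraries that overlapped between the groups.

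Of 19 further J proteins 11 fell and 7 rose, against 42.3% of all genes lower and 41.5% higher. Dnajc2, the J protein that works with Hspa14 at the ribosome, fell 2.21-fold, and Dnajc27 fell 2.13-fold. Dnajc5, the cysteine string protein of vesicles, rose 2.15-fold, at 168 ± 2.4 CPM against 361 ± 13 CPM (SD, n = 3 each), and Dnajc18 rose 1.62-fold. Of 18 further mitochondrial genes 9 rose and 8 fell, to be set beside the same shares of all genes. Grpel2, an exchange factor for Hspa9, rose 2.08-fold and Hscb, a J protein of iron-sulphur cluster assembly, 2.21-fold, while the protease Htra2 fell 2.84-fold and Dnajc19, a J protein of the import motor, 2.73-fold.

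Of 11 partners of TRiC and prefoldin 8 fell and 3 rose, against 42.3% of all genes lower and 41.5% higher. Tbcd and Tbcb, cofactors that assemble tubulin after TRiC, fell 3.47-fold and 1.81-fold, and Pdrg1, part of a prefoldin-like complex, and Pdcl3, a TRiC cofactor, rose 2.89-fold and 1.198-fold. Among 3 tested small heat shock and heat shock factor genes, Hsbp1, which binds the trimer domain of Hsf1, rose 1.67-fold, at 99.9 ± 4.3 CPM against 167 ± 5.2 CPM (SD, n = 3 each). Hsf4, a heat shock factor of the lens chosen here after its values were seen, had 2, 0 and 0 reads in the WT-labelled libraries and 49, 35 and 51 in the KO-labelled ones.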

How the data were processed

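RNA of 6 MPC5 libraries was sequenced. The authors deposited raw read counts per gene, made with fastp, HISAT and HTSeq. The submitters' processing notes name GRCm39 as the build. Tool versions, annotation and use of strand were not found there, so overlapping and antisense genes cannot be told apart. All columns matched a sample by genotype and number, and 0 rows lacked a gene name. The members and lists were chosen with earlier results of these data known.

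Counts were tested with edgeR 4.0.16 (R 4.3.3), using its quasi-likelihood F test, TMM scaling, filterByExpr at its minimum count of 10, the group label as its single term, and p-values adjusted by Benjamini-Hochberg over 13509 genes, with a threshold of 0.05. The glmTreat limit was 1.5-fold. Fold changes use a prior count of 0.125, the standard error is the log2 fold change divided by the square root of F, and intervals are at 95%. On simulated counts the same fit recovered 32 of 50 genes changed 1.2-fold, 48 of 50 at 1.5-fold and 50 of 50 at 2-fold, with 14 false calls among 13301 tested. The simulation gave every gene the same spread, left most genes unchanged and changed only well-counted ones, as many up as down. In the data 83.8% of genes were called, so it cannot show how the scaling or the error rate holds there. With 36461449 to 37129174 reads per library, genes of a few reads carry wide counting error.

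Lengths and processed copies came from GENCODE M21 (GRCm38) and blastn 2.17.0, with the longest coding transcript of each gene, or for Cct6a the longest one other than a retained intron. Copies were sought in the count table by name alone, so a copy listed there under another name would be missed. Values per library are given for the heat shock factors, Hspa1a, Hspa1b, and in each role the 3 largest changes and the most abundant gene; further network genes are up to 2 rises and 2 falls per list with at least 5 CPM. Values of other genes were added after they were seen. The alternatives were DESeq2 size factors, total-count scaling, the DESeq2 Wald test (1.42.0), no filter on low counts, a minimum of 1 CPM in 3 libraries, leaving out single libraries, a block for the replicate number, and Hspa1a with Hspa1b or Ptges3 with its processed copy summed.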

Additional observations from a re-analysis of the deposited data

How the results depend on the processing

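The counts of chaperone genes called lower (25 to 35) and higher (8 to 15) stayed within 1.5 times the main 34 and 11 under every alternative run, as did the counts past 1.5-fold, the counts without overlap, those of the other network genes and those of all genes. Leaving out single libraries gave 34 to 35 lower and 8 to 11 higher. Of 589 values of single chaperone genes under the alternatives, 560 kept direction and call, 20 lost the call, 6 gained one and 3 reversed, and 33 of 49 genes kept both throughout. The reversals, all under total-count scaling, were Hsph1 (log2 fold change 0.053), Dnaja2 (0.085) and Pfdn5 (0.123). That scaling also moved the role medians to 0.52 for the heat shock factors, -0.093 for the HSP70 family, -0.715 for HSP90 and cofactors, -0.301 for small heat shock proteins, -1.142 for mitochondrial chaperones, -0.02 for J proteins and BAG factors, -0.753 for TRiC and 0.28 for prefoldin, close to its shift of 0.154 for the median of all genes. The TRiC median ran from -0.939 to -0.891 when single libraries were left out. With the replicate number as a block, 34 chaperone genes were lower and 11 higher, as in the fit without it. Same-numbered libraries did not deviate together over the genes tested (correlations of 0.001, -0.037 and -0.006). Such correlations cannot exclude that libraries of the same number shared a culture or a run. Depth limits Hspa1a, with 11 and 28 reads per group.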
